A study of Mus musculus with 24 samples.

Results

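The genes described here are 10 mouse members of the TGF-beta and BMP pathways, namely the ligand genes Tgfb1, Tgfb2, Tgfb3, Inhba, Bmp4 and Bmp7, the latency gene Ltbp2, and the output genes Smad7, Id1 and Id3. They were chosen by name and matched through their Ensembl identifiers, and all 10 were found among the 36040 genes of the KP table and among the 31618 genes of the LLC1 table. RNA came from live CD45-negative cells sorted from tumours on day 15 after tumour cells of a mouse lung cancer line were injected into mice. There were 24 libraries in 8 groups of 3, which the submitters call biological replicates. No label says that the 3 came from separate animals, so p-values measure the spread between these samples, which may be technical.

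The LLC1 line, Lewis lung carcinoma, gave tumours that had been exposed to chronic low-level interferon gamma (chronic IFNG LLC1), tumours that had relapsed under immune checkpoint blockade (relapsed LLC1) and parental LLC1 tumours. The KP line comes from a genetically engineered mouse model that carries p53 flox/flox alleles and gave chronic IFNG KP, parental KP, 1st relapse KP, 2nd relapse KP and late relapse KP tumours. All 15 KP libraries therefore come from cells of that model, and the treatment label of all 24 libraries is None. How the IFNG exposure was given, how the 3 KP relapses relate in time, and the host strain are not given in the labels.

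TGF-beta ligands are secreted bound to a latency peptide, which latent TGF-beta binding proteins anchor in the matrix until integrins or proteases release the ligand. TGF-beta and activin signal through SMAD2 and SMAD3, while BMPs signal through SMAD1 and SMAD5. The Id genes are classical BMP-SMAD targets, and Smad7 is induced by the pathway and inhibits its receptors. In lung tumours the ligands can come from tumour cells or from the surrounding stroma.

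The estimated depth was 13.3 to 34.8 M fragments per LLC1 library and 13.7 to 32.8 M per KP library, from the spacing of the lowest values, and 22104 to 30700 genes were detected per library. The epithelial keratins Krt8 and Krt18 were high in KP tumours (at least 45623 and 38159 normalised counts in every library) and low in LLC1 tumours (at most 4248 and 4287), in tables normalised separately. Epcam was between 0 and 28.3 normalised counts in LLC1 libraries, and the lung lineage factor Nkx2-1 did not exceed 10.3 in any library, so the defining lung epithelial marker was near 0 in both lines. None of 7 leukocyte markers reached the testing threshold, and their summed level was at most 18.1 CPM (a share of all back-calculated counts of the library). The 10 fibroblast markers summed to 5104 to 7469 CPM in chronic IFNG LLC1 tumours, 2193 to 2374 in relapsed LLC1 tumours and 2534 to 3242 in parental LLC1 tumours. In KP tumours the same sum was 161 to 288 in chronic IFNG, 180 to 241 in parental, 520 to 734 in 1st relapse, 29.3 to 40.9 in 2nd relapse and 136 to 428 in late relapse tumours. In bulk RNA, fewer cells of a type and less RNA per cell cannot be told apart.

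Levels are given as normalised counts calculated back from the deposited log2 values, 1 value per library in the order of replicates 1 to 3. Differences are log2 differences ± SE on the deposited scale. That scale shrinks changes at low counts, so the fold of normalised counts is given beside them. A difference was called at an adjusted p below 0.05 from limma, with Benjamini-Hochberg adjustment over all tested genes of a line. With 3 against 3 libraries an exact test cannot go below p = 0.1, so calls rest on limma's variance model. Comparisons with parental tumours within a line share the same 3 parental libraries.

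Bmp4, Bmp7, Ltbp2 and Id1 rose in all 3 KP relapses against parental tumours, and Tgfb3 fell in all 3. The 3 comparisons share their parental libraries, and the share of all tested genes called in 1 direction in all 3 was not counted. Bmp7 was furthest from parental tumours, 30.7-fold higher in late relapse. The parental means of Bmp4 and Bmp7 lay below the testing threshold (about 144.2 normalised counts), so both were tested through other groups. The direction of their calls is thus in part fixed by the filter, although the calls were kept without a filter. In 1st relapse KP tumours 9 of 10 members were called (6 higher and 3 lower), where 50.9% of the 11193 tested genes were called, 25.4% higher and 25.5% lower. In 2nd relapse KP tumours 9 of 10 were called (6 higher and 3 lower), against 65.8% of all tested genes, 36.8% higher and 29% lower. In late relapse KP tumours 8 of 10 were called (6 higher and 2 lower), against 56.9% of all tested genes, 31% higher and 25.9% lower. The median log2 difference of the 10 members was 0.30, 0.30 and 0.37 in 1st, 2nd and late relapse tumours, beside -0.01, 0.03 and 0.01 over all tested genes.

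Fewer members differed in chronic IFNG KP tumours. There 5 of 10 were called (2 higher and 3 lower), against 21.8% of tested genes, 12.8% higher and 9% lower, with a median of 0.07 beside -0.01 over all genes. Bmp4 and Id1 rose while Tgfb1, Tgfb3 and Inhba fell. In chronic IFNG LLC1 tumours 2 of 7 tested members (Tgfb3 and Id3) were higher and none was lower, where 24.5% of 10581 tested genes were called, 9.03% higher and 15.5% lower. Relapsed LLC1 tumours had 1 of 7 higher and 2 lower than parental tumours, against 45.4% of tested genes called, 25.9% higher and 19.5% lower. Tgfb2, Bmp4 and Bmp7 were below the level tested in LLC1 (a group mean 1 log2 unit above the lowest value, about 130.4 normalised counts, or 144.2 in KP). The LLC1 medians over 7 members were 0.06 and 0.05, beside -0.02 and 0.03 over all tested genes.

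**Figure D1:**
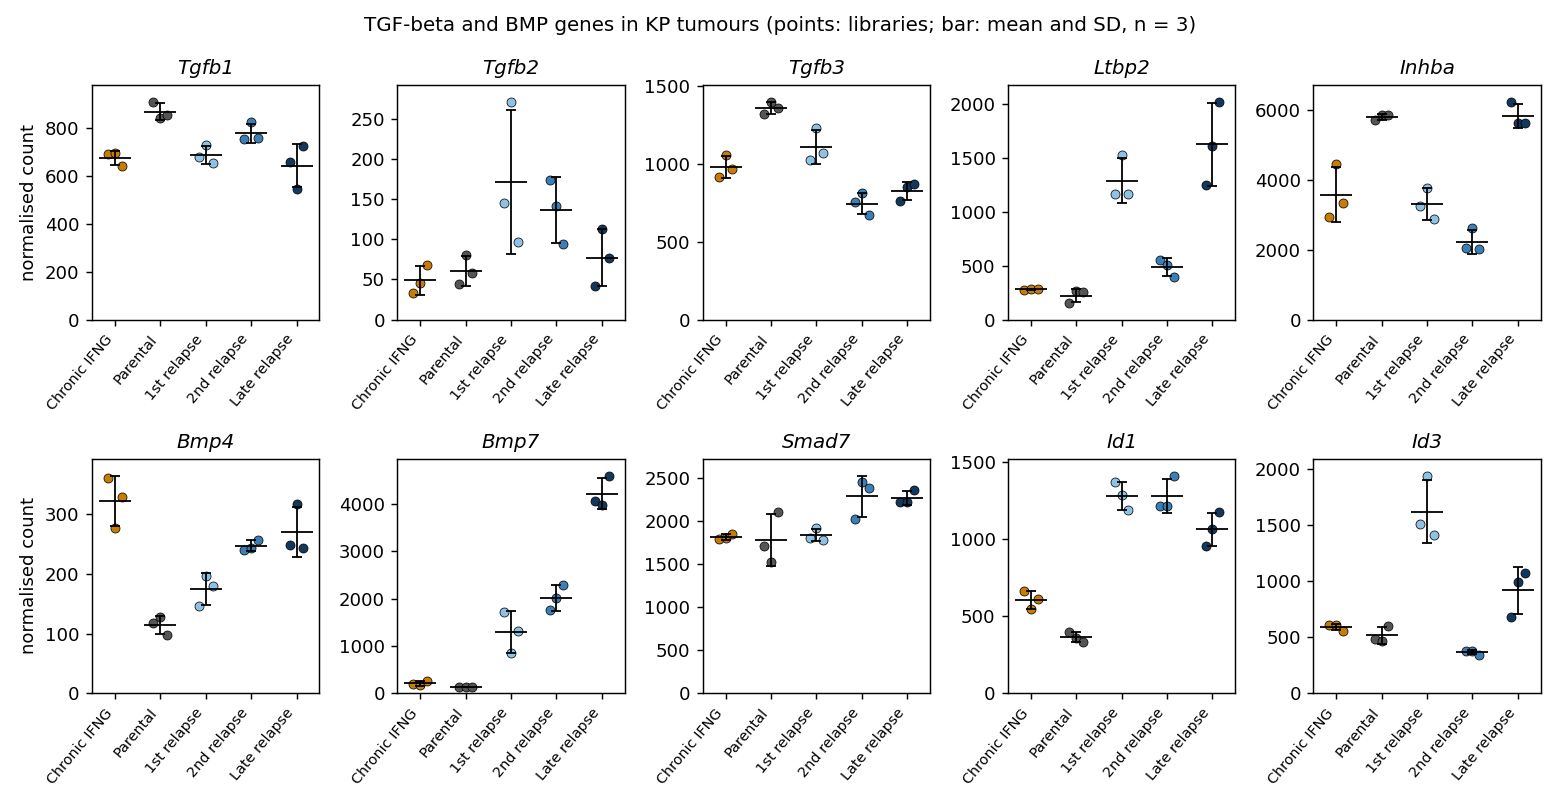
Normalised counts (vertical axis, 1 scale per gene) of the 10 genes in each KP library, by group on the horizontal axis. Points are libraries and bars are the mean and SD of 3. Bmp7 sits at 3979.6 to 4587 counts in late relapse libraries, against 132 to 141 in parental ones, and Ltbp2, Inhba and Id3 are lower in 2nd relapse than in 1st or late relapse.

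Among the TGF-beta ligands, Tgfb1 and Tgfb3 fell in KP tumours and Tgfb2 rose in 2 of the 3 relapses. Tgfb1, the ligand best known for restraining immune responses (chr7:25687002-25705077 on GRCm38, plus strand), had 689.7, 695 and 641 normalised counts in chronic IFNG KP tumours, against 907, 842 and 855 in parental KP tumours. It had 679, 729.9 and 654 in 1st relapse, 753, 823 and 758 in 2nd relapse, and 656, 545 and 722 in late relapse. Every library of the 4 other groups lay below the lowest parental one, although the differences were small. The log2 difference was -0.23 ± 0.06 in chronic IFNG (adjusted p 0.00789, limma), -0.21 ± 0.06 in 1st relapse (0.00504) and -0.28 ± 0.06 in late relapse (0.000629). In 2nd relapse it was -0.10 ± 0.06 and was not called (0.115), but quantile normalisation gave -0.15 (0.0332) and median centring -0.15 (0.0377). Tgfb1 in LLC1 had 227, 285 and 319 in chronic IFNG, 218, 302 and 308 in relapsed, and 324, 266 and 336 in parental tumours, groups that overlapped and were not called (adjusted p 0.516 and 0.443, limma).

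Tgfb2 (chr1:186622792-186705989, minus strand) was the lowest of the 3 per kilobase of exon in KP. It had 32.8, 46.2 and 68.4 normalised counts in chronic IFNG KP tumours, against 44, 80.7 and 57.6 in parental KP tumours. It had 146, 271 and 96.9 in 1st relapse, 175, 142 and 93.9 in 2nd relapse, and 42, 113 and 76.6 in late relapse. The 1st and 2nd relapse libraries all lay above the parental ones, while late relapse overlapped them. Tgfb2 was 2.82-fold higher in 1st relapse (log2 difference 0.41 ± 0.12, adjusted p 0.0115, limma) and 2.25-fold higher in 2nd relapse (0.32 ± 0.12, 0.0326). It passed the low-count threshold through its 1st relapse mean alone, so its call there is in part fixed by the filter. Without 1st relapse replicate 2 the difference was 0.26 (0.0611), and in 2nd relapse the call was lost on leaving out parental replicate 1 (0.104) or 3 (0.0719), or 2nd relapse replicate 1 (0.123) or 2 (0.0762), and with median centring (0.0663). In LLC1 it had 87.1, 96.3 and 62.4 in chronic IFNG, 132, 85.8 and 113 in relapsed, and 32.1, 79.9 and 50.3 in parental tumours. All relapsed libraries were above the parental ones, and without a filter the relapsed difference was 0.28 ± 0.08 (0.0353).

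Tgfb3 (chr12:86056745-86079041, minus strand), a ligand with roles in palate and lung development and in wound repair, moved in opposite directions in the 2 lines. In LLC1 it had 3918, 2944 and 2097 normalised counts in chronic IFNG tumours and 2381, 2264 and 2162 in relapsed tumours, against 921, 1383 and 1338 in parental tumours. No library of either group overlapped the parental ones, and the chronic IFNG libraries were the most spread. Chronic IFNG LLC1 tumours were 2.46-fold higher (log2 difference 1.02 ± 0.17, adjusted p 0.00236, limma) and relapsed LLC1 tumours 1.87-fold higher (0.72 ± 0.17, 0.00506). Relapsed against chronic IFNG tumours gave -0.30 ± 0.17 (0.15), or -0.50 (0.0108) without chronic IFNG replicate 3. Fibroblast markers were also higher in chronic IFNG LLC1 tumours, with 8 of 10 called. Pdgfra (adjusted p 0.245, limma) and Fap (0.186) were not called. The part of fibroblasts in the Tgfb3 result was not tested. In relapsed LLC1 tumours 5 of 10 fibroblast markers were lower than in parental tumours and none was higher.

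In KP tumours Tgfb3 had 916, 1059 and 964 normalised counts in chronic IFNG, against 1321, 1395 and 1362 in parental tumours. It had 1024, 1231 and 1073 in 1st relapse, 753, 810.5 and 674 in 2nd relapse, and 760.0, 851 and 871 in late relapse. All 12 of these libraries lay below the lowest parental library, with 2nd and late relapse the lowest. The log2 differences were -0.34 ± 0.06 in chronic IFNG (adjusted p 0.000824, limma), -0.21 ± 0.06 in 1st relapse (0.00773), -0.59 ± 0.06 in 2nd relapse (5.26e-07) and -0.50 ± 0.06 in late relapse (7.42e-06). The largest of these corresponded to 1.82-fold fewer normalised counts in 2nd relapse than in parental tumours. The opposite direction in the 2 lines was not tested, because the lines were normalised separately.

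**Figure D2:**
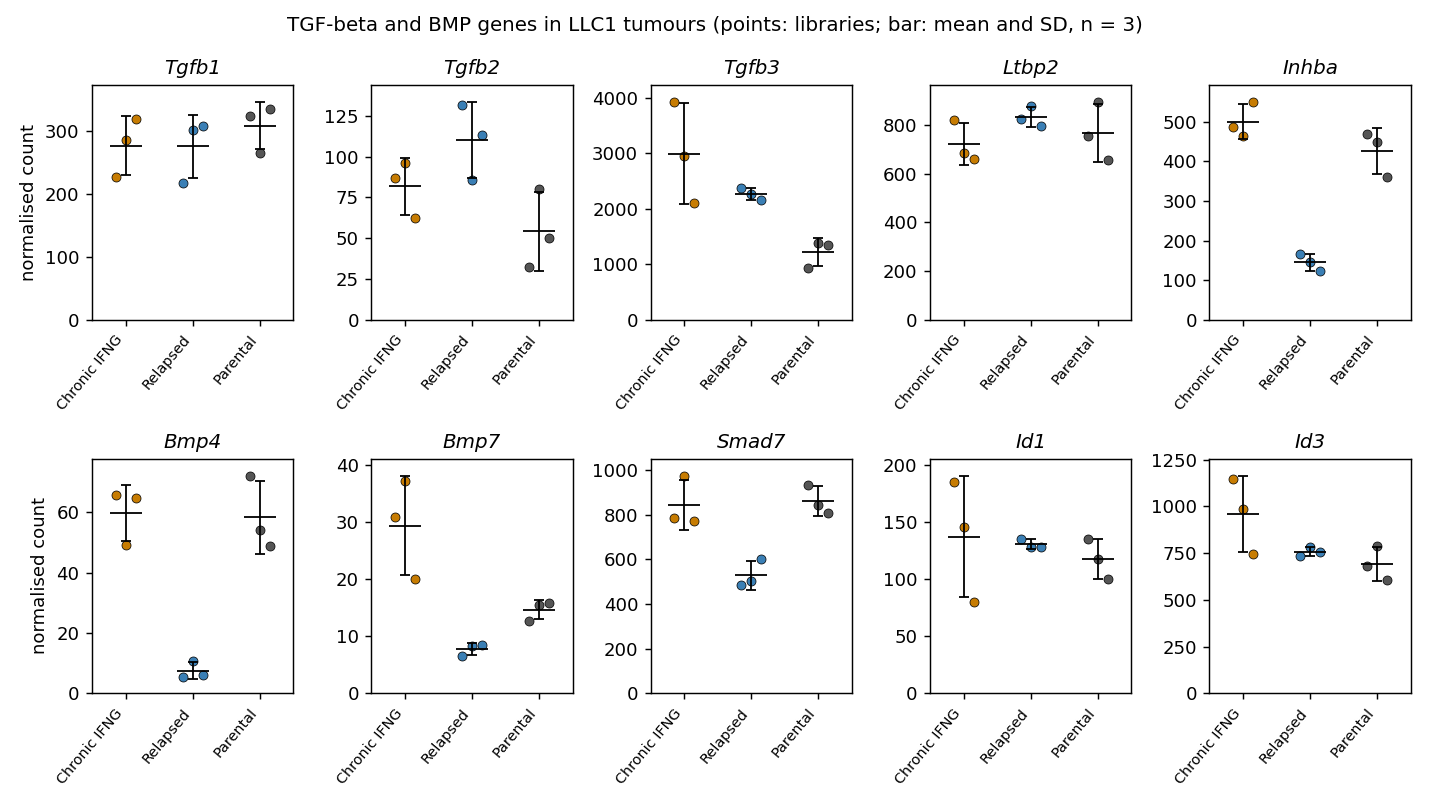
Normalised counts (vertical axis, 1 scale per gene) of the 10 genes in each LLC1 library, by group on the horizontal axis, with the mean and SD of 3. Tgfb3 is above the parental libraries in both other groups, Inhba and Smad7 are lower in relapsed tumours, and Tgfb2, Bmp4 and Bmp7 stay near or below 132 counts.

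Ltbp2 encodes a member of the latent TGF-beta binding protein family that sits on matrix microfibrils and, unlike its relatives Ltbp1 and Ltbp3, is not known to carry latent TGF-beta. It lies on the minus strand at chr12:84783212-84876532. In KP tumours it had 275, 279.7 and 286 normalised counts in chronic IFNG, against 151, 260.4 and 258 in parental tumours. It had 1165, 1527 and 1165 in 1st relapse, 555, 508 and 396 in 2nd relapse, and 1248, 1612 and 2014 in late relapse. All 3 relapses were above the parental libraries, with 2nd relapse between the parental and the other relapse libraries. The folds over parental tumours were 5.77 in 1st relapse (log2 difference 1.43 ± 0.12, adjusted p 3.04e-07, limma), 2.18 in 2nd relapse (0.54 ± 0.12, 0.00123) and 7.29 in late relapse (1.67 ± 0.12, 6.58e-08). The chronic IFNG difference of 0.15 ± 0.12 was not called (0.42). In LLC1 Ltbp2 had 821, 685 and 659 in chronic IFNG, 825, 878 and 796 in relapsed, and 753, 893 and 658 in parental tumours, which overlapped and were not called.

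Inhba encodes the subunit that forms activin A (chr13:16011851-16031621, plus strand), and per kilobase of exon it was the highest of the 10 members in parental KP tumours. It had 2922, 4451 and 3329.9 normalised counts in chronic IFNG KP tumours, against 5699, 5860.3 and 5838 in parental KP tumours. It had 3242, 3770.2 and 2868 in 1st relapse, 2053, 2621 and 2009.8 in 2nd relapse, and 6209.8, 5625 and 5622 in late relapse. The late relapse libraries overlapped the parental ones and all others were lower. The log2 differences were -0.64 ± 0.12 in chronic IFNG (adjusted p 0.00121, limma), -0.73 ± 0.12 in 1st relapse (0.000149), -1.20 ± 0.12 in 2nd relapse (4.85e-07, 2.6-fold lower) and 0.00 ± 0.12 in late relapse (0.983). In LLC1 tumours Inhba had 488, 464 and 549.8 in chronic IFNG and 166, 146 and 123 in relapsed tumours, against 469, 449 and 360.4 in parental tumours. It fell 2.94-fold in relapsed LLC1 tumours (-0.68 ± 0.07, 2.48e-05) and was not called in chronic IFNG LLC1 tumours (0.13 ± 0.07, 0.177).

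Bmp7, a ligand that acts through SMAD1 and SMAD5 and is known from kidney development, had the largest log2 difference of any member in the 9 comparisons (chr2:172868012-172940321, minus strand). It had 193, 174 and 263 normalised counts in chronic IFNG KP tumours, against 141, 132 and 139 in parental KP tumours. It had 1727, 845 and 1309.7 in 1st relapse, 1752, 2008 and 2291 in 2nd relapse, and 4068, 3979.6 and 4587 in late relapse. Every relapse library was above every parental and chronic IFNG library, and the late relapse libraries were above all others. The parental mean was below the level tested, so Bmp7 was tested through the other groups. Bmp7 was 9.43-fold higher in 1st relapse (log2 difference 1.65 ± 0.14, adjusted p 2.38e-07, limma), 14.7-fold higher in 2nd relapse (2.17 ± 0.14, 3.97e-09) and 30.7-fold higher in late relapse (3.07 ± 0.14, 5.04e-10) than in parental tumours. Chronic IFNG libraries did not overlap the parental ones, but their difference of 0.21 ± 0.14 was not called (0.289). In LLC1 Bmp7 stayed low, with 30.9, 37.2 and 20 in chronic IFNG, 6.57, 8.31 and 8.41 in relapsed, and 12.7, 15.4 and 15.9 in parental tumours.

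Bmp4 (chr14:46383520-46390669, minus strand), a ligand of embryonic mesoderm and lung bud outgrowth, was higher in all 4 KP groups. It had 360.2, 277 and 328 normalised counts in chronic IFNG KP tumours, against 118, 128 and 97 in parental KP tumours. It had 145, 197 and 180.4 in 1st relapse, 239, 244 and 257 in 2nd relapse, and 248, 318 and 243 in late relapse. No library of these groups overlapped the parental ones, and chronic IFNG reached the highest values. The parental mean was below the level tested, so Bmp4 was tested through these groups. The folds were 2.81 in chronic IFNG (log2 difference 0.57 ± 0.06, adjusted p 1.23e-05, limma), 1.52 in 1st relapse (0.20 ± 0.06, 0.0131), 2.16 in 2nd relapse (0.40 ± 0.06, 4.17e-05) and 2.36 in late relapse (0.45 ± 0.06, 2.44e-05). The 1st relapse call was lost with quantile normalisation (0.07, 0.325), without parental replicate 3 (0.17, 0.0603) and without 1st relapse replicate 2 (0.17, 0.0569). In LLC1 Bmp4 had 65.6, 49 and 64.5 in chronic IFNG and 5.52, 10.9 and 6.18 in relapsed tumours, against 71.9, 54.2 and 48.8 in parental tumours. The relapsed libraries lay far below the other groups, and without a filter the difference was -0.43 ± 0.05 (0.000308).

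The 8 macrophage markers summed to 118 to 166 CPM in 1st, 316 to 351 in 2nd and 216 to 327 in late relapse KP tumours, against 85.9 to 117 in parental KP tumours. The cells were sorted as CD45-negative, and how many macrophages remained was not measured. The macrophage markers did not move together. Of 3 tested, Mrc1 (6879 ± 589.7 normalised counts) and Cd14 (1459 ± 111) were higher and Lyz2 (31.1 ± 10.8) was lower in 2nd relapse than in parental tumours (1629.7 ± 269, 329 ± 26.9 and 161 ± 73.2), and Mrc1 and Cd14 were higher in late relapse. The defining markers Adgre1 and Csf1r were below the level tested, with Csf1r at 20.6 ± 8.67 in 2nd relapse against 30 ± 17 in parental tumours. The 8 endothelial markers summed to 174 to 195 in 1st, 188 to 222 in 2nd and 239.9 to 259 in late relapse, against 153 to 168 in parental tumours. Flt1 carried most of that sum (5836.5 ± 213 normalised counts in late relapse against 3525 ± 91.6 in parental tumours) and was the only endothelial marker tested, while Pecam1 had 23 ± 7.74 in late relapse against 24.3 ± 5.43 in parental tumours. The epithelial sum was 5253 to 8506 in the KP relapses, against 4347 to 4373 in parental tumours. Krt8 and Krt18 carried most of that sum. Epcam had 7367 ± 979 normalised counts in 1st, 1474 ± 175 in 2nd and 2598 ± 535 in late relapse, against 758 ± 142 in parental tumours. The part of these cell types in the rise of the BMP ligands and the Id genes was not tested.

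The inhibitory SMAD gene Smad7, on chromosome 18, had 1786, 1807 and 1849 normalised counts in chronic IFNG KP tumours, against 1708, 1522 and 2108 in parental KP tumours. It had 1808, 1913 and 1779 in 1st relapse, 2018, 2454 and 2388 in 2nd relapse, and 2223, 2223 and 2363 in late relapse. Smad7 was higher in 2nd relapse (log2 difference 0.29 ± 0.08, adjusted p 0.00401, limma), where 1 library overlapped the parental ones, and in late relapse (0.29 ± 0.08, 0.00574). Differences in chronic IFNG (0.03 ± 0.08, 0.828) and 1st relapse (0.04 ± 0.08, 0.68) were not called. In LLC1 tumours Smad7 had 787, 974 and 774 in chronic IFNG and 484, 501 and 604 in relapsed tumours, against 935, 843 and 808 in parental tumours. Relapsed LLC1 tumours were 1.63-fold lower (-0.44 ± 0.07, 0.000737) with no overlap, while chronic IFNG LLC1 tumours were not called (-0.02 ± 0.07, 0.855).

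The Id genes encode inhibitors of basic helix-loop-helix factors and are read out as BMP-SMAD targets. Id1 (chr2:152736251-152737410, plus strand) had 663, 546 and 610.3 normalised counts in chronic IFNG KP tumours, against 397, 362 and 333 in parental KP tumours. It had 1368, 1284 and 1186 in 1st relapse, 1213, 1215 and 1409 in 2nd relapse, and 958, 1063 and 1173 in late relapse. All 4 groups lay wholly above the parental libraries, and every relapse library was above every chronic IFNG one. The folds were 1.67 in chronic IFNG (log2 difference 0.40 ± 0.06, adjusted p 0.000446, limma), 3.52 in 1st relapse (1.10 ± 0.06, 1.48e-08), 3.51 in 2nd relapse (1.10 ± 0.06, 1.99e-09) and 2.93 in late relapse (0.92 ± 0.06, 5.21e-08). In LLC1 Id1 had 185, 146 and 80 in chronic IFNG, 135, 128 and 128 in relapsed, and 135, 118 and 100.4 in parental tumours, which overlapped and were not called.

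Id3 (chr4:136143497-136145755, plus strand) did not follow Id1 in 2nd relapse. It had 606, 612 and 557 normalised counts in chronic IFNG KP tumours, against 483, 465 and 599 in parental KP tumours. It had 1506, 1936 and 1411 in 1st relapse, 375, 379 and 346 in 2nd relapse, and 683, 994 and 1073 in late relapse. The 1st and late relapse libraries were above the parental ones and the 2nd relapse libraries were below them. Id3 was 3.14-fold higher in 1st relapse (log2 difference 1.09 ± 0.10, adjusted p 8.52e-07, limma) and 1.78-fold higher in late relapse (0.50 ± 0.10, 0.00083). In 2nd relapse it was 1.41-fold lower (-0.25 ± 0.10, 0.0397), a call lost without a filter (0.0628) and on leaving out parental replicate 1 (0.0534) or 3 (0.155) or 2nd relapse replicate 1 (0.0693), 2 (0.0652) or 3 (0.101). The chronic IFNG difference of 0.12 ± 0.10 was not called (0.466).

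In LLC1 tumours Id3 had 1147, 987 and 745 normalised counts in chronic IFNG and 734, 782 and 756 in relapsed tumours, against 681, 789.6 and 605 in parental tumours. Chronic IFNG replicate 3 overlapped the parental range. The chronic IFNG difference was called at 0.30 ± 0.10 (adjusted p 0.0417, limma). That call was lost without a filter (0.105), in a fit of the 2 groups alone (0.085), and without parental replicate 1 (0.105) or 3 (0.12) or chronic IFNG replicate 1 (0.123) or 2 (0.113). The relapsed difference was 0.09 ± 0.10 (0.488).

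**Figure D3:**
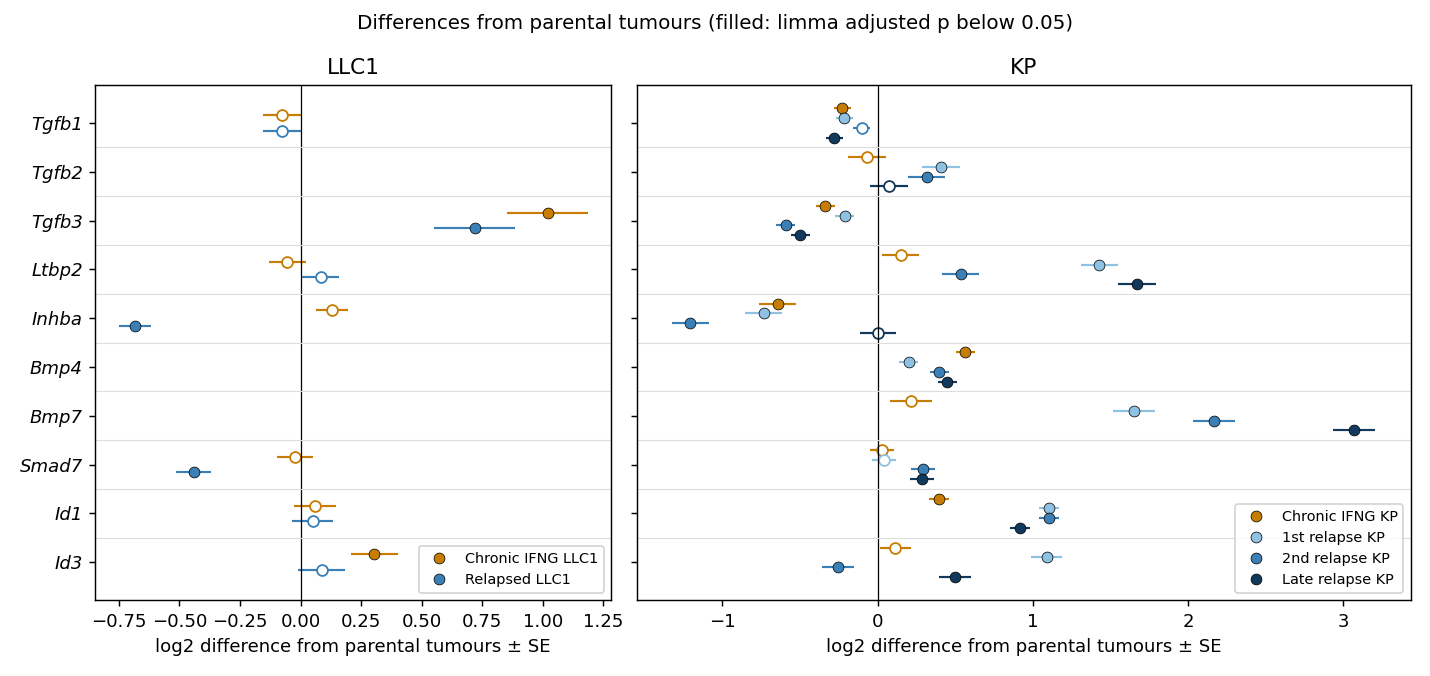
Log2 difference from parental tumours ± SE (horizontal axis) for each gene, in LLC1 on the left and KP on the right. Filled points had a limma adjusted p below 0.05. Bmp7 reaches 3.07 in late relapse KP, and Tgfb3 is right of 0 in LLC1 and left of 0 in KP. Genes not tested in LLC1 have no point there.

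The relapse groups of the KP line differed from each other at the members about as often as at all tested genes. Between 2nd and 1st relapse 7 of 10 members were called (3 higher and 4 lower in 2nd relapse), against 62.2% of tested genes, 34.3% higher and 28% lower. Between late and 2nd relapse 6 of 10 were called (4 higher and 2 lower in late relapse), against 54.9% of tested genes, 25.2% higher and 29.7% lower. The member medians were -0.05 and 0.07, beside 0.02 and -0.01 over all tested genes. Ltbp2, Inhba and Id3 were lower in 2nd than in 1st relapse and higher in late than in 2nd relapse. For Id3 the log2 difference was -1.34 ± 0.10 in 2nd minus 1st relapse (4.41-fold lower, adjusted p 4.29e-08, limma) and 0.75 ± 0.10 in late minus 2nd relapse (2.5-fold higher, 2.22e-05). For Ltbp2 the differences were -0.89 ± 0.12 (1.54e-05) and 1.13 ± 0.12 (1.99e-06), and for Inhba -0.47 ± 0.12 (0.00303) and 1.21 ± 0.12 (8.97e-07).

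Bmp7 rose at both steps, by 0.52 ± 0.14 in 2nd minus 1st relapse (adjusted p 0.00415, limma) and by 0.90 ± 0.14 in late minus 2nd relapse (5.94e-05). Without 1st relapse replicate 2, the lowest Bmp7 library of that group, the first of these was 0.32 (0.0150). Tgfb3 fell by 0.38 in 2nd minus 1st relapse (5.7e-05) and gave 0.10 ± 0.06 in late minus 2nd relapse (0.18). Bmp4 rose by 0.20 ± 0.06 in 2nd minus 1st relapse (0.0108, or 0.0556 without 1st relapse replicate 1). Smad7 rose by 0.25 ± 0.08 there (0.0112), a call lost with quantile normalisation (0.14, 0.1) and without 2nd relapse replicate 2 (0.053). Id1 gave -0.00 ± 0.06 in 2nd minus 1st relapse (0.99) and -0.19 ± 0.06 in late minus 2nd relapse (0.0229) in a call lost with quantile normalisation (0.0584) and without 2nd relapse replicate 3 (0.113) or late relapse replicate 1 (0.106) or 2 (0.0508). Tgfb1 was lower in late than in 2nd relapse (-0.18 ± 0.06, 0.0143), a call lost without 2nd relapse replicate 2 (0.0606) or late relapse replicate 2 (-0.11, 0.0799) and in a fit of the 2 groups alone (0.0538).

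Fibroblast markers moved with the 3 genes that dipped in 2nd relapse. All 9 tested fibroblast markers were lower in 2nd than in 1st relapse KP tumours, and 7 of 9 were higher in late than in 2nd relapse, in the same directions as Ltbp2, Inhba and Id3. The part of fibroblasts in these 3 results was not tested. Inhba was lower in 1st relapse than in parental tumours, and the fibroblast sum was 520 to 734 in 1st relapse, against 180 to 241 in parental tumours. Ltbp2 was highest in late relapse, where the fibroblast sum was 136 to 428, and lower in 1st relapse, where it was 520 to 734. In 2nd relapse, at a fibroblast sum of 29.3 to 40.9, Ltbp2 was 2.18-fold above parental tumours, Id1 was 3.51-fold above and Bmp7 was 14.7-fold above.

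**Figure D4:**
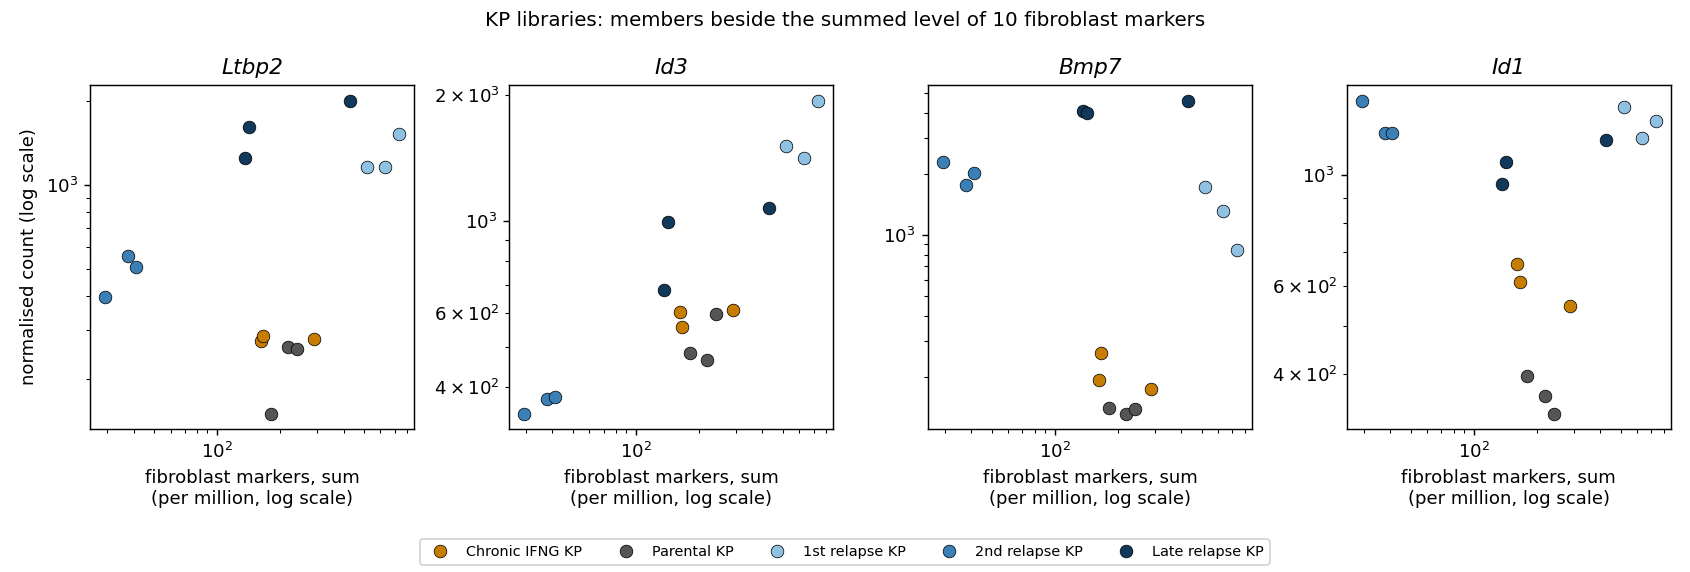
Normalised counts of Ltbp2, Id3, Bmp7 and Id1 (vertical axes, log scale) against the summed level of 10 fibroblast markers (horizontal axes, CPM, log scale) in the 15 KP libraries, coloured by group. The 2nd relapse libraries sit at fibroblast sums of 29.3 to 40.9 with low Id3 and high Bmp7 and Id1.

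The windows before the starts of Ltbp2 and Inhba are shown because both genes dipped in 2nd relapse KP tumours. They are RefSeq promoter sequences on GRCm38.p6, 5′ to 3′ on the gene's strand, cut where the GENCODE gene begins. Capitals mark CAGAC or its reverse complement GTCTG, the short SMAD3/SMAD4 element. The Ltbp2 window is chr12:84876533-84876741 (minus strand) and the Inhba window is chr13:16011601-16011850 (plus strand).
Ltbp2: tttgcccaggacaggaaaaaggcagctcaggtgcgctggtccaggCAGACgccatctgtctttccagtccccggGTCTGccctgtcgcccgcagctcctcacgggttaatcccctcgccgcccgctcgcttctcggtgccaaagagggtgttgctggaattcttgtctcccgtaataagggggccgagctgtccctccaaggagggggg
Inhba: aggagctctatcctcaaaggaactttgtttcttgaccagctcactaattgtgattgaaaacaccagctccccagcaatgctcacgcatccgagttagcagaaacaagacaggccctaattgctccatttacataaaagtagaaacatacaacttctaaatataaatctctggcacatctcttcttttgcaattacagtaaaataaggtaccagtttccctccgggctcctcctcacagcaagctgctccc
The Ltbp2 window held 2 such elements and the Inhba window held none. Of 32817 mouse windows of 250 bases, 42.2% held at least 1, counted on both strands. Windows were searched for 6 of the 10 members. Those of Tgfb2 and Id3 also held 2 elements each, while those of Tgfb1 and Bmp4 held none. The Id3 window lies wholly inside the GENCODE gene, all 250 bases of it. The GC-rich element GGCGCC, in 9.59% of all windows, and the palindrome GTCTAGAC, in 0.168%, were in none of the 6. No window of Tgfb3, Bmp7, Smad7 or Id1 was searched, so whether these genes carry any of the elements was not tested. The GC content was 61.6% for the full 250-base window of Ltbp2, 62.8% for that Id3 window and 43.2% for Inhba, beside a median of 52.4% over all windows.

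Relapsed and chronic IFNG LLC1 tumours were also set against each other. Of 7 tested members none was higher and 2 were lower in relapsed tumours, where 52% of tested genes were called, 31.5% higher and 20.5% lower. Inhba was 3.45-fold lower in relapsed than in chronic IFNG LLC1 tumours (log2 difference -0.81 ± 0.07, adjusted p 5.74e-06, limma), and Smad7 was 1.6-fold lower (-0.42 ± 0.07, 0.000781). Id3 gave -0.22 ± 0.10 and was not called (0.0803), but was called with quantile normalisation (-0.26, 0.0363), median centring (-0.26, 0.0344) and without chronic IFNG replicate 3 (-0.33, 0.00469). Without chronic IFNG replicate 3 the number lower was 4. Of the members below the level tested, Bmp4 (-0.44 ± 0.05, adjusted p 0.000202, limma) and Bmp7 (-0.23 ± 0.04, 0.00436) were lower without a filter. Tgfb2 was not called there (0.12 ± 0.08, 0.293). The median of the 7 members was -0.22, beside 0.04 over all tested genes.

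Per kilobase of exon, the order of the members differed between groups. In late relapse KP tumours Bmp7 had 1048 ± 81.7 normalised counts per kilobase, Id1 918 ± 92.6 and Inhba 911 ± 52.9, neighbours that lie within about their SDs of each other (SD, n = 3). In parental KP tumours Inhba led with 908 ± 13.7, followed by Tgfb3 with 402 ± 10.9 and Smad7 with 394 ± 66.2, which overlap, while Bmp7 had 34.2 ± 1.15 and Ltbp2 27.2 ± 7.66. In relapsed LLC1 tumours Tgfb3 led with 671 ± 32.3 and Id3 followed with 423 ± 13.4, and in parental LLC1 tumours Id3 with 386 ± 51.9 and Tgfb3 with 359 ± 75.3 were within their SDs.

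The other genes of the pathway were counted in lists in the same fits. Each count against parental tumours is to be read beside the share of all tested genes called in that comparison, which was 21.8% in chronic IFNG, 50.9% in 1st, 65.8% in 2nd and 56.9% in late relapse KP tumours, and 24.5% in chronic IFNG and 45.4% in relapsed LLC1 tumours. Of 19 further ligands, 4 were tested in KP and 3 in LLC1. Bmp2, a BMP ligand close to Bmp4, rose in all 4 KP groups, with 153 ± 11.2 normalised counts in chronic IFNG against 93.4 ± 9.93 in parental tumours, and 445 ± 19.5, 685 ± 70.6 and 816 ± 67.8 in 1st, 2nd and late relapse (n = 3 each). Lefty1, an inhibitor of Nodal signalling, had 207 ± 15.7, 442 ± 48.8 and 307 ± 51.5 in 1st, 2nd and late relapse, against 52.6 ± 9.38 in parental tumours, and was called in all 3. Gdf11 had 205 ± 25.2 in chronic IFNG KP against 328 ± 39.7 in parental KP tumours and was lower. In all, 2 ligands were higher and 1 was lower in chronic IFNG and in 1st relapse KP tumours, and 2 were higher and 2 lower in 2nd and in late relapse. In LLC1, Inhbb, the other activin subunit, had 10.8 ± 3.58 in relapsed against 256 ± 67 in parental tumours, and Bmp5 had 40.1 ± 4.6 against 211 ± 53.9, both lower. In chronic IFNG LLC1 tumours Bmp5 was higher (465 ± 176, or adjusted p 0.0562 in limma without parental replicate 1), and Inhbb was lower (163 ± 24.7, adjusted p 0.0433), a call lost without any of 4 single libraries, parental replicate 2 or 3 or chronic IFNG replicate 1 or 2 (0.0816 to 0.15), without a filter (0.0984), in a fit of the 2 groups alone (0.0803) and with back-calculated counts (0.0843).

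Among 15 genes of TGF-beta latency and activation, 12 were tested in KP. In chronic IFNG KP tumours 1 was higher and 5 were lower, a count of 6 that fell to 2 without parental replicate 1 and to 3 without parental replicate 3 or chronic IFNG replicate 1. In 1st relapse 4 were higher and 6 lower, in 2nd relapse 2 higher and 8 lower, and in late relapse 2 higher and 5 lower. Of all tested genes 25.5%, 29% and 25.9% were lower in 1st, 2nd and late relapse, and the list's median log2 difference was -0.15, -0.99 and 0.01. All 9 tested fibroblast markers were also lower in 2nd relapse than in parental KP tumours, and the part of fibroblasts in the list's falls was not tested. Itgb6, the integrin subunit that releases latent TGF-beta on epithelia, had 351 ± 4.45 normalised counts in chronic IFNG KP tumours against 75.4 ± 28.8 in parental tumours, and 639.5 ± 99.3 in 1st and 719.8 ± 93.2 in late relapse. Thbs1, which encodes the activator thrombospondin 1, had 2782 ± 284 in 2nd relapse against 27931 ± 1449.6 in parental tumours. The microfibril gene Fbn1 had 142 ± 70.2 in 2nd relapse against 2923 ± 793, Ltbp4 had 1193 ± 171 in late relapse against 4167 ± 292, Fbn2 had 436 ± 289.7 in 1st relapse against 64.7 ± 7.95, and the procollagen protease gene Bmp1 had 6879 ± 431 in chronic IFNG against 9703 ± 1015. In LLC1, 11 of the list were tested. In chronic IFNG LLC1 tumours 7 were higher and none lower, led by Emilin1 (5587 ± 852 against 3578 ± 664) and Ltbp3 (4168 ± 556 against 2630.1 ± 311), beside the higher fibroblast markers. In relapsed LLC1 tumours none was higher and 5 were lower (3 without relapsed replicate 1), led by the latent TGF-beta anchor gene Lrrc32 (14.1 ± 5.16 against 156 ± 55.7) and Itgav (5977 ± 207 against 8060.2 ± 816).

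More receptors were lower than higher in each KP relapse. Of 14 listed, 10 were tested in KP, with 1 higher and 6 lower in 1st relapse (a count of 7, or 4 without parental replicate 3), none higher and 7 lower in 2nd relapse, and 1 higher and 4 lower in late relapse, where 5 were not called. The shares of all tested genes called lower were 25.5%, 29% and 25.9%, and the list's median log2 difference was -0.18, -0.28 and -0.08. Rgmb, a BMP co-receptor, had 2409 ± 320.5 normalised counts in chronic IFNG against 3696 ± 399 in parental KP tumours, and 1316 ± 193, 875 ± 111 and 1702 ± 211 in 1st, 2nd and late relapse. The type I receptor gene Tgfbr1 had 1268 ± 29.5 in 1st and 1248 ± 64.5 in late relapse, against 2413 ± 114 in parental tumours. Tgfbr3, betaglycan, had 391 ± 73.8 in chronic IFNG and 31.9 ± 10.5 in 2nd relapse, against 653 ± 41.9 in parental tumours. In chronic IFNG KP tumours 2 receptors were higher and 3 lower, a count of 5 that became 3 without parental replicate 1 or chronic IFNG replicate 3. In LLC1, with 11 tested, 4 were higher and 1 lower in chronic IFNG, and 1 was higher and 4 lower in relapsed tumours. The type II receptor gene Tgfbr2 was higher in both, with 3469 ± 445 in chronic IFNG and 3674 ± 129.9 in relapsed tumours, against 2319.9 ± 336 in parental tumours. Eng had 1356 ± 74.5 in chronic IFNG against 936 ± 126 in parental, and Rgmb 2300.5 ± 110.0 in relapsed against 3425 ± 265 in parental LLC1 tumours.

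Intracellular SMADs and their regulators were called in both directions, at shares near those of all tested genes in the KP relapses. Of 16 listed, 14 were tested in KP, with 2 higher and 4 lower in 1st relapse, 5 higher and 4 lower in 2nd relapse, and 6 higher and 3 lower in late relapse. That is 6, 9 and 9 of 14, beside 50.9%, 65.8% and 56.9% of all tested genes. The SMAD2 co-repressor gene Tgif1 had 4411 ± 161, 4578 ± 68.9 and 3768 ± 167 normalised counts in 1st, 2nd and late relapse, against 6878 ± 342 in parental tumours. The BMP effector gene Smad5 had 2419 ± 57.9 in 2nd and 2418 ± 164 in late relapse, against 3696 ± 98.4. The BMP inhibitor gene Smad6 had 176 ± 37.1 in chronic IFNG and 241 ± 7.17 in 1st relapse, against 70.1 ± 10 in parental tumours. Smad6 is also on the list of BMP target genes, so its calls count in both lists. Chronic IFNG KP tumours had 2 higher and 3 lower, a count of 5 that was 3 with the replicate block, without a filter, in a fit of the 2 groups alone and without parental replicate 1 or 3, and 2 without chronic IFNG replicate 1, where Smad5 (3101 ± 244, adjusted p 0.011 in limma) lost its call at 0.0610. In LLC1, 12 were tested. In chronic IFNG LLC1 tumours none was higher and 2 were lower, Smad4 (1795 ± 51 against 2284 ± 135) and Tgif2 (373 ± 25.4 against 481 ± 12.5, 0.0554 without parental replicate 2), a count of 2 that became 1 without parental replicate 2 and 6 without chronic IFNG replicate 3. In relapsed LLC1 tumours 4 were higher and 3 lower, with Zfyve9, a SMAD anchor, at 1231 ± 39.7 against 734 ± 13.4 and Smad2 at 1250.2 ± 53.4 against 1704 ± 90.4.

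Extracellular inhibitors moved with the fibroblast markers in part, and Dcn is itself on the fibroblast list. Of 14 listed, 7 were tested in KP, with 3 higher and 1 lower in 1st relapse, 2 higher and 5 lower in 2nd relapse, 2 higher and 2 lower in late relapse, and 1 higher and none lower in chronic IFNG. Dcn, decorin, had 1841 ± 457 normalised counts in 1st and 42.2 ± 14.1 in 2nd relapse, against 705 ± 182 in parental tumours, and Fstl1 had 2576 ± 196 and 205 ± 21.3 against 719.9 ± 142. The BMP antagonist gene Nbl1 had 1199 ± 209.5 in chronic IFNG and 1682 ± 294 in late relapse, against 656 ± 73.6, and the activin inhibitor gene Fstl3 had 721 ± 82.9 in late relapse against 311 ± 31.3. In LLC1, with 5 tested, 2 were higher in chronic IFNG, Dcn (36086 ± 5615 against 19376 ± 1101) and Fstl1 (1.43-fold), and in relapsed tumours Dcn was lower (9718 ± 474) and Twsg1 higher (3472 ± 35.9 against 2791 ± 192).

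TGF-beta target genes did not share 1 direction in KP. Of 16 listed, 12 were tested, with 1 higher and 1 lower in chronic IFNG, 7 higher and 2 lower in 1st relapse, 4 higher and 5 lower in 2nd relapse, and 4 higher and 3 lower in late relapse. Of all tested genes, 12.8% were higher and 9% lower in chronic IFNG, 25.4% and 25.5% in 1st relapse, 36.8% and 29% in 2nd relapse, and 31% and 25.9% in late relapse. Tgfbi had 6292 ± 574 normalised counts in chronic IFNG, 1122 ± 286 in 2nd and 3944 ± 1076 in late relapse, against 11871 ± 840.0 in parental tumours. Ccn2 had 4574 ± 609 in chronic IFNG against 2524 ± 782. The matrix genes Postn (4913 ± 849.8 against 727 ± 207) and Col1a1 (8984 ± 1915 against 1833 ± 695) were higher in 1st relapse, where fibroblast markers were high, and Col1a1 was lower in 2nd relapse (239.5 ± 20.4), where they were low. Postn is itself on the fibroblast list, so its rise is part of that of the markers. In LLC1, also with 12 tested, 6 were higher and none lower in chronic IFNG, led by Col1a1 (5626 ± 1055 against 2019 ± 542) and Fn1 (2.32-fold), and 1 was higher and 6 lower in relapsed tumours, led by Bhlhe40 (1740.0 ± 217 against 3561 ± 595) and Col1a1 (1026 ± 53.7).

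BMP target genes were called in both directions in KP, as were all tested genes. Of 12 listed, 7 were tested, with 3 higher and 1 lower in chronic IFNG, 3 higher and 3 lower in 1st relapse, 3 higher and 4 lower in 2nd relapse, and 3 higher and 3 lower in late relapse. The shares of all tested genes called were 21.8%, 50.9%, 65.8% and 56.9%. Id2, the relative of Id1 and Id3, had 1349 ± 124 normalised counts in chronic IFNG against 703 ± 51.5 in parental tumours, and 2556 ± 265, 4677 ± 139 and 2631 ± 544 in 1st, 2nd and late relapse. Hey1, also a Notch target, had 758 ± 104 in chronic IFNG, 280.4 ± 85.4 in 2nd and 262 ± 37.9 in late relapse, against 1553 ± 44.1 in parental tumours. Gata2 had 17.7 ± 3.18 in 1st relapse against 168 ± 10.5. In LLC1 only 3 were tested, with Id2 higher in relapsed tumours (377 ± 21.7 against 272 ± 13.1) and Runx2 higher in chronic IFNG tumours (701 ± 31.4 against 565 ± 54.6, adjusted p 0.0247 in limma). The Runx2 call was lost without parental replicate 1 or 2 or chronic IFNG replicate 1 or 2 (0.0649 to 0.0892), without a filter (0.0604) and in a fit of the 2 groups alone (0.0558).

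For each member called against parental tumours of a line, the most similar other genes were taken by Pearson's r of the deposited values over all libraries of that line, as a description, since the libraries share their groups and depth. Over the 15 KP libraries Sgsm1 was among the genes most like Bmp7 (r = 0.982). Id1 was most like Mfsd6 (0.974) and Fkbp14 (0.964), Id3 like Dclk1 (0.967) and Cdh11 (0.960), and Ltbp2 like Cpq (0.962) and Selenom (0.958). Inhba was most like Sele (0.970) and Fam171a1 (0.963), and Tgfb3 like Hey1 (0.964) and Amotl1 (0.960). The closest genes of Bmp4 (Pld2, 0.874, and Alcam, 0.815), Smad7 (Ap1s1, 0.896, and Arf4, 0.893), Tgfb1 (Klhl20, 0.886, and Ss18l1, 0.858) and Tgfb2 (Ntpcr, 0.879, and Retsat, 0.853) were less alike. Over the 9 LLC1 libraries Tgfb3 was most like Slc35f5 (0.991) and Pink1 (0.990), Inhba like Glipr1 (0.987) and Itga5 (0.986), Smad7 like Khnyn (0.979) and Arhgef3 (0.973), and Id3 like Arfgap3 (0.984) and Trim26 (0.961). Among the members themselves, the 5 largest absolute r in KP were 0.82 for Bmp7 with Id1, 0.81 for Ltbp2 with Bmp7, 0.75 for Ltbp2 with Id3, 0.73 for Bmp7 with Smad7 and -0.73 for Tgfb3 with Bmp7. The 2 largest in LLC1 were 0.87 for Inhba with Smad7 and 0.82 for Tgfb3 with Id3.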

How the data were processed

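The authors deposited 1 table per line, normalised separately, and its title and range of values show log2 values on a variance-stabilised scale. Per the submitters' processing notes cutadapt 2.9, Salmon 1.8.0, DESeq2 1.34.0 and the build GRCm38 were used, without each tool's role. Whether counting used strand is not given in the sources used here. Identifiers were matched to GENCODE vM21 names (85 KP and 70 LLC1 identifiers had none).

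The lowest deposited value (8.17 in KP, 8.03 in LLC1) was taken as a count of 0 and normalised counts were calculated back from it. In each library 68.4% to 76.2% of low values came within 0.15 reads of a whole number, against 30% by chance, so the depths are estimates. Genes with a group mean 1 log2 unit above the lowest value were kept, 11193 in KP and 10581 in LLC1. A gene below that level in parental tumours was kept only where another group was high, so a rise is in part fixed by the filter. In KP this held for Tgfb2, Bmp4 and Bmp7, and for the named Bmp2, Lefty1, Itgb6, Fbn2 and Smad6. Likewise, a gene below that level in a relapse group was kept only through another group, so a fall there is in part fixed by the filter. That held for Gata2 in 1st relapse KP tumours, and for Fbn1, Tgfbr3, Dcn and Lyz2 in 2nd relapse. In relapsed LLC1 tumours it held for Lrrc32, Inhbb and Bmp5. Differences were fitted with limma 3.58.1 (R 4.3.3) with the trend option, 1 fit per line holding every group, for 9 comparisons. The fit was tested on simulated data.

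Members and lists were chosen with earlier results of these data known. Genes named beside the members were up to 2 called genes per list and comparison with parental tumours with the largest absolute log2 difference, and the 2 most correlated genes per called member. An allele of the KP model and a gene this rule named are not reported here. Ccn2 stands for the listed Ctgf, its older name. Promoter sequences are RefSeq's.

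The numbers were taken to pair samples where r between the deviations of same-numbered samples was over 0.1 in every pair, which held for 1st relapse and parental KP tumours alone (0.112 to 0.206), from the data and not the labels. The replicate block left 9 members called there, as without it. Between other groups r was -0.303 to 0.266, and in 5 group pairs it was above 0 in every pair but not over 0.1 in all 3.

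Other settings tried were quantile normalisation, median centring, testing without a filter or with one at 3 log2 units, no trend, the replicate block, back-calculated counts with a pseudocount of 10, fits of 2 groups only and leaving out each library.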

Additional observations from a re-analysis of the deposited data

Results flagged for a closer look

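The KP relapse groups differed from each other in direct limma comparisons with adjusted p below 0.05, for 7 of 10 genes in 2nd minus 1st relapse (62.2% of all tested genes) and 6 of 10 in late minus 2nd relapse (54.9%). These counts are near the shares of all tested genes. In 2nd minus 1st relapse the log2 difference was -0.38 for Tgfb3, -0.89 for Ltbp2, -0.47 for Inhba, 0.20 for Bmp4, 0.52 for Bmp7, 0.25 for Smad7 and -1.34 for Id3. In late minus 2nd relapse it was -0.18 for Tgfb1 (-0.175 before rounding), 1.13 for Ltbp2, 1.21 for Inhba, 0.90 for Bmp7, -0.19 for Id1 and 0.75 for Id3.

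Tgfb3 and Smad7 had all libraries of the LLC1 group on 1 side of the parental libraries and all libraries of the KP group on the other. The share of all genes with such a pattern was not counted. This difference between lines was not tested, since the lines were normalised separately. Tgfb3 was 1.02 in chronic IFNG LLC1 tumours and -0.34 in chronic IFNG KP tumours. It was 0.72 in relapsed LLC1 tumours, and -0.21, -0.59 and -0.50 in 1st, 2nd and late relapse KP tumours. Smad7 was -0.44 in relapsed LLC1 tumours and 0.29 in late relapse KP tumours.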

How the results depend on the processing

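The 81 member differences kept their direction and call under no trend and under the replicate block, and the number of members called was the same with the replicate block in all 9 comparisons (9 in 1st relapse KP, 2 in chronic IFNG LLC1). The stricter filter left 3 members testable in KP and 1 in LLC1, so fewer were called by construction: 1 in chronic IFNG KP, 2 in 1st relapse, 3 in 2nd relapse, 2 in late relapse, 3 in 2nd minus 1st relapse and 2 in late minus 2nd relapse, and in LLC1 1 in chronic IFNG, 1 in relapsed and 0 in relapsed minus chronic IFNG (0 at an unadjusted p under 0.05, limma). Without a filter, where all 10 members were tested in LLC1, 1 was called in chronic IFNG LLC1, 5 in relapsed and 4 in relapsed minus chronic IFNG. A fit of the 2 groups alone called 1 in chronic IFNG LLC1. The causes of the last change and of the one without a filter in chronic IFNG LLC1 were not tested. Leaving out 1 library gave 1 to 2 called members in chronic IFNG LLC1, 3 to 3 in relapsed LLC1, 2 to 4 in relapsed minus chronic IFNG LLC1, 5 to 5 in chronic IFNG KP, 7 to 9 in 1st relapse, 7 to 9 in 2nd relapse, 8 to 8 in late relapse, 6 to 7 in 2nd minus 1st relapse and 4 to 6 in late minus 2nd relapse. The share of all genes called under each changed setting was not counted. Sign changes were limited to 13 differences that were not called. Quantile normalisation turned Id1 in relapsed minus chronic IFNG LLC1 to 0.018, Inhba in late relapse KP to -0.021, Tgfb2 in 2nd minus 1st relapse to 0.0082 and Smad7 in late minus 2nd relapse to 0.063. Median centring turned Inhba in late relapse to -0.027 and Smad7 in late minus 2nd relapse to 0.0096, and back-calculated counts with a pseudocount of 10 turned Id1 in relapsed minus chronic IFNG LLC1 to 0.0049. Leaving out 1 library gave ranges across 0 in chronic IFNG LLC1 for Ltbp2 (-0.124 to 0.0197), Smad7 (-0.094 to 0.019) and Id1 (-0.028 to 0.17), in relapsed minus chronic IFNG LLC1 for Tgfb1 (-0.065 to 0.069) and Id1 (-0.12 to 0.078), for Smad7 in chronic IFNG KP (-0.052 to 0.13) and 1st relapse (-0.041 to 0.14), in late relapse for Tgfb2 (-0.0101 to 0.16) and Inhba (-0.0403 to 0.025), in 2nd minus 1st relapse for Tgfb2 (-0.21 to 0.052) and Id1 (-0.053 to 0.035), and in late minus 2nd relapse for Bmp4 (-0.0034 to 0.082) and Smad7 (-0.076 to 0.038). Precision at low counts is limited by the stabilised scale, on which Tgfb2, Bmp4 and Bmp7 in LLC1 stayed below the level tested.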
